A study of Mus musculus with 15 samples.

Results

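Cluster 0 was the largest of the 3 clusters into which the deposited annotation split the microglia of mice that were not examined 1 day after the TREM2-activating antibody. Its members were taken as every cell annotated to cluster 0 from the control mice and from the treated mice of days 7, 14 and 28. They numbered 47403 of the 81584 cells of these 12 mice, and of 102043 cells of 15 mice in the series. Each mouse gave 3363 to 4597 of them, which was 53.6 to 64.2% of its cells. The same 12 mice held 32755 cells in cluster 1 and 1426 in cluster 2. The 945 cluster 0 cells of mice sampled 1 day after ATV:4D9 were not members.

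All mice were male C57BL/6J animals of 3.5 months with the hTfR KI genotype, in which the transferrin receptor carries human sequence. Each had received a single dose of 10 mg/kg antibody. ATV:RSV, the control, joins an antibody against a respiratory virus to an Fc that binds the human transferrin receptor, and ATV:4D9 joins an antibody against the microglial receptor TREM2 to the same kind of Fc. There were 4 groups of 3 mice: controls given ATV:RSV and examined at day 1, and mice given ATV:4D9 and examined at day 7, day 14 or day 28. Controls were sampled at day 1 only, so that treatment and the days since dosing cannot be told apart, and the controls carried the knock-in and an Fc that binds its receptor as well. Cells came from cortex and hippocampus of dissociated hemibrains and had been enriched with CD45 beads, and each of 3 processing batches held 1 mouse of each group. Transcripts were counted as unique molecular identifiers (UMIs) with a droplet method that reads the 3′ end.

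Immediate early genes code for transcription factors such as the FOS, JUN and EGR proteins and for their feedback inhibitors, and their transcription begins within minutes of a stimulus without new protein being made. Signalling through MAP kinases, calcium and NF-kB drives them by factors that are already present in the cell. In microglia they are known to respond to damage and to cytokines, and enzymatic dissociation of brain at warm temperature is also known to switch them on. Whether dissociation had a part in the levels below was not tested, since every library was made the same way.

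The members carried the defining transcripts of microglia. Summed over the cluster 0 cells of a mouse and given as CPM (a gene's UMIs scaled to a fixed library size), the mean over 12 mice was 3250 CPM for the fractalkine receptor Cx3cr1, 1917 CPM for the ADP receptor P2ry12 and 1070 CPM for Tmem119. Of the marker lists of other cells, the summed levels over the 12 mice lay between 0.0359 and 0.429 CPM for T or NK cells, 3.06 and 9.34 CPM for monocytes, 6.07 and 13.5 CPM for neurons and 0.272 and 36.1 CPM for erythrocytes. They were 78.4 to 108 CPM for oligodendrocytes, 153 to 195 CPM for border macrophages, 186 to 227 CPM for neutrophils, 189 to 282 CPM for astrocytes, 208 to 271 CPM for B cells and 403 to 454 CPM for endothelial cells. From border macrophages on, 1 gene held most of each sum, which was Stab1, Csf3r, Slc1a3, Ighm and Bsg in that order. The cluster 0 sums held 22494936 to 33617612 UMIs per mouse. A cluster 0 cell had a median of 5284 to 7060 UMIs, against 3677 to 4773 in cluster 1, and was richer in 12 of 12 mice. Cells were therefore also thinned to 4263 UMIs each, which left out 3.86 to 24.2% of cluster 0 and 36.5 to 67.0% of cluster 1 cells. With thinning the median number of genes was 1696 to 1776 in cluster 0 and 1642 to 1839 in cluster 1. Of the members, 1220 (2.57%) had a barcode that also occurred in another library. Cells with at least 3 markers of another cell type or in the top 5% of their mouse by UMIs were 9.02 to 10.8% of cluster 0. They were at most 1.94% of cluster 1 and 6.76 to 25.5% of cluster 2.

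Sequences next to the start sites of 7 genes that stood high in cluster 0 are shown because they hold short DNA words that the inducing factors are known to bind. They are the 250 bases before the RefSeq transcript start on GRCm38.p6, written 5′ to 3′ on the gene's strand, with matches to the searched motifs, on either strand, in capitals. Egr1 and Ier2 are named only.
Fos promoter, chr12:85473640-85473889, plus strand: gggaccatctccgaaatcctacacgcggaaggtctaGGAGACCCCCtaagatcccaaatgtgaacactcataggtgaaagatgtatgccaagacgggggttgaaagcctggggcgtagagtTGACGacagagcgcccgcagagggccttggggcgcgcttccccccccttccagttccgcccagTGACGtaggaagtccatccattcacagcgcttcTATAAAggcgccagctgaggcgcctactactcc
Fosb promoter, chr7:19310046-19310295, minus strand: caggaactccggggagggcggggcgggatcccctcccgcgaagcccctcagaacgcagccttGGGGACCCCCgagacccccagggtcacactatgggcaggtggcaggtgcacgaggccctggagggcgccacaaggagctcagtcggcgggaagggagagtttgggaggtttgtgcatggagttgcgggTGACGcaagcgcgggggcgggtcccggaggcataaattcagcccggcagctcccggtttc
Atf3 promoter, chr1:191183334-191183583, minus strand: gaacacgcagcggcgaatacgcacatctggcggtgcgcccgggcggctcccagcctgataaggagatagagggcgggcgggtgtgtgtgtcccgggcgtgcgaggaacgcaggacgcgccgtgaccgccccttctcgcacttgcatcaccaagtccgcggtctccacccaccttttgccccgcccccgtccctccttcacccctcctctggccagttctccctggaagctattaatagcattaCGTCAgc
Klf2 promoter, chr8:72318812-72319061, plus strand: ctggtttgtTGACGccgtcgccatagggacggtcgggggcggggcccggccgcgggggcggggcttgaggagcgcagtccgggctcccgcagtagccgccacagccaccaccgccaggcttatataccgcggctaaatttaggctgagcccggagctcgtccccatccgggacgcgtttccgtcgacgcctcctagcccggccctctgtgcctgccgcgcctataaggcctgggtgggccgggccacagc
Nfkbia promoter, chr12:55492648-55492897, minus strand: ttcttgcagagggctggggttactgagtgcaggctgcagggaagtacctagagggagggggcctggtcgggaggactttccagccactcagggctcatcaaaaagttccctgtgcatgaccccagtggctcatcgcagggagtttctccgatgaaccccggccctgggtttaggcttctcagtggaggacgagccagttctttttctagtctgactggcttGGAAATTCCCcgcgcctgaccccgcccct
Cxcl10 promoter, chr5:92348890-92349139, minus strand: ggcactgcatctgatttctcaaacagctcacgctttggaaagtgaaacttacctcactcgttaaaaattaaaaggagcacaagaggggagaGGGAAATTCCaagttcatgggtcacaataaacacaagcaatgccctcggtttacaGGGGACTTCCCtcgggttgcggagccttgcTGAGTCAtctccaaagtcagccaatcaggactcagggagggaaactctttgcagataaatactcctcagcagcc
Dusp1 promoter, chr17:26508473-26508722, minus strand: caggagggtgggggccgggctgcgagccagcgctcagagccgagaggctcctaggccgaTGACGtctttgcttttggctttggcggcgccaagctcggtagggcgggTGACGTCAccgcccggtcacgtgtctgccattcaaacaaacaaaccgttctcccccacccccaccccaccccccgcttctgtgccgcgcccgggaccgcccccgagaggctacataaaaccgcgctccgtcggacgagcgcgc

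In the Fos window the capitals mark, with others given below, an NF-kB site that begins 214 bases before the start and a TATA box 33 bases before it. Fosb held an NF-kB site, 188 bases before its start. The promoter of Nfkbia, which codes for the inhibitor that NF-kB itself induces, held an NF-kB site 29 bases before the start. The Cxcl10 window held 4 matches, which were an AP-1 motif and NF-kB sites, of which the matches at 104 and 103 bases before the start overlap. Dusp1, a phosphatase of MAP kinases, held a full cyclic AMP response element (CRE) 143 bases before its start. The core of the CRE, TGACG, stood in the Fos window 129 and 66 bases before the start, in that of Fosb 60 bases, in that of Klf2 241 bases and, on the other strand, in that of Atf3 7 bases before it. In the Dusp1 window it also stood outside the full CRE, 191 bases before the start. No other searched word was found in the windows of Atf3 and Klf2, which says only that these letters were not there. The windows shown were picked for their matches. Among others looked at, that of Junb held the core of the CRE and that of Btg2 a full CRE, 166 bases before its start. That of Dusp2, also higher in cluster 0 than in cluster 1, held none of the words, and those of Tnf and Il1b only a TATA box. Those of Hspa1a, Hspa1b and P2ry12, which were lower in cluster 0, each held an NF-kB site.

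The same words were counted on both strands of all 32851 windows of that length. Of the 161 genes described below as higher in cluster 0 than in cluster 1, 122 matched the table and had 166 windows, since a gene may have several. The CRE, TGACGTCA, was in 6.63% of these windows, against 1.55% of all windows and 2.65% of the 10879 windows of the genes that were compared. Its core TGACG, which every full CRE contains, was in 38.6%, against 17.8% of all and 27.7% of those compared. The NF-kB site was in 17.5%, against 7.25% and 8.76%. The CArG box bound by serum response factor was in 3.61%, against 1.47% and 1.08%. The AP-1 motif TGAGTCA was in 3.61%, against 4.46% and 2.84%, and the EGR motif GCGTGGGCG in 2.41%, against 0.536% and 1.09%. The TATA box, TATAAA, was in 12.05%, against 12.4% and 6.04%. These shares describe letters near start sites and give no evidence on binding.

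Within each mouse, cluster 0 differed from cluster 1 first in its immediate early genes. These genes were among those on which the cells were clustered, so the differences describe the cluster and were not tested. Egr1, a zinc finger factor of the early response, summed to 2856, 3092 and 2807 CPM in cluster 0 of the 3 ATV:RSV mice, against 371, 510 and 257 CPM in their cluster 1. Over 12 mice Egr1 lay between 2409 and 3152 CPM in cluster 0, between 257 and 522 CPM in cluster 1, and between 1734 and 2265 CPM in cluster 2, so that no cluster overlapped another. Fos, the AP-1 subunit, lay between 4389 and 5484 CPM in cluster 0 and between 559 and 1298 CPM in cluster 1. Fosb, a gene of the same family, spanned 410 to 804 CPM against 65.2 to 152 CPM. For both genes each mouse's cluster 0 lay above every cluster 1 value.

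Atf3, a stress-induced factor of the ATF family, ranged from 1771 to 2658 CPM in cluster 0 and from 179 to 422 CPM in cluster 1, while its cluster 2 range of 1307 to 2462 CPM overlapped that of cluster 0. Klf2, a Krüppel-like factor that restrains inflammatory genes, ranged from 439 to 1080 CPM in cluster 0 and from 46.2 to 258 CPM in cluster 1. It overlapped cluster 2, at 306 to 1033 CPM. Ier2, a nuclear protein of the early response, ranged from 1496 to 2192 CPM against 181 to 340 CPM. On the log2 scale the mean of the 12 within-mouse differences was 2.88 ± 0.30 (SD, n = 12) for Egr1, 2.83 ± 0.35 for Ier2, 2.80 ± 0.34 for Atf3, 2.54 ± 0.34 for Fosb, 2.47 ± 0.33 for Fos and 2.43 ± 0.47 for Klf2. After thinning the 6 means were 2.30 to 2.75. Against cluster 2 they were 0.22 for Atf3 to 0.67 for Fosb.

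**Figure D1:**
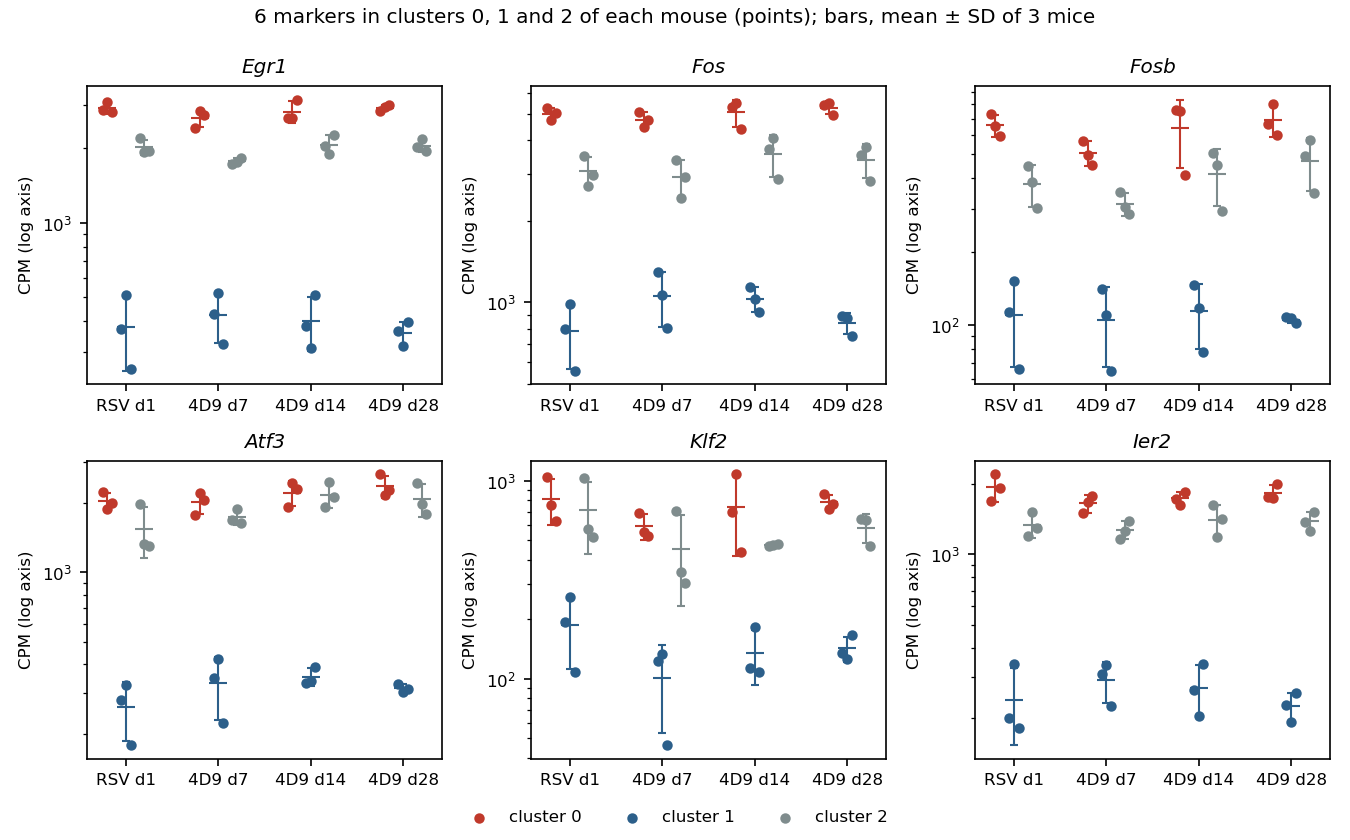
Level of the 6 markers in CPM on a log axis, by group, in clusters 0 (red), 1 (blue) and 2 (grey); each point is 1 mouse and bars are mean ± SD of 3 mice. Cluster 0 lies above cluster 1 for each marker in all 12 mice, for Egr1 at 2409 to 3152 against 257 to 522 CPM.

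Most cluster 0 cells carried most of the markers at once. In cells thinned to the same depth, 94.5 to 98.1% of a mouse's cluster 0 cells had a UMI of at least 4 of the 6 markers, against 17.7 to 42.3% in cluster 1 and 68.2 to 87.0% in cluster 2. Without thinning the shares were 97.2 to 98.9% in cluster 0 and 14.0 to 30.3% in cluster 1. No marker was seen in 0 to 0.221% of cluster 0 cells, against 6.58 to 23.8% of cluster 1 cells. The median sum over the 6 markers was 49 to 59 UMIs per thinned cell in cluster 0 and 2 to 10 in cluster 1. Fos was found in 98.6 to 99.7% of thinned cluster 0 cells and Egr1 in 97.8 to 99.1%, whereas Klf2 was found in 42.9 to 65.0%. In cluster 1 the same shares were 47.9 to 79.7%, 38.4 to 61.5% and 7.97 to 31.3%. No cell type known to lack these genes was present in number, so the share that free RNA gives could not be read from these cells.

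**Figure D2:**
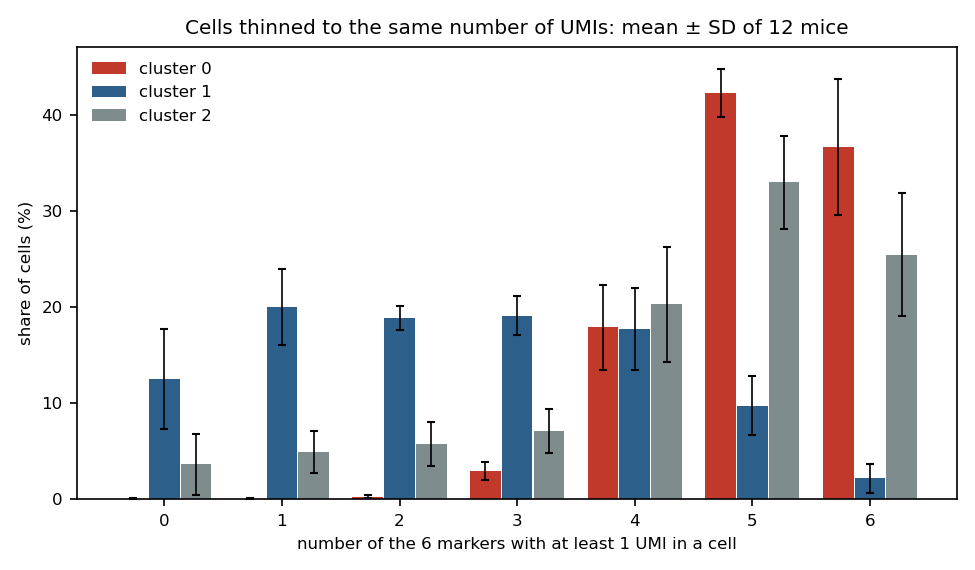
Share of cells (%) by the number of the 6 markers with at least 1 UMI, in cells thinned to 4263 UMIs; bars are the mean of 12 mice and lines the SD. Cluster 0 cells sit at 4 to 6 markers (94.5 to 98.1% per mouse), cluster 1 cells are spread from 0 to 6, with 0.562 to 5.41% per mouse at 6.

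Among cluster 0 cells the early genes varied together only in part. Over the thinned cells of a mouse, the correlation of Egr1 with Jun had a median of 0.37 over 12 mice and that of Egr1 with Ier2 a median of 0.34. Egr1 with Klf2 gave 0.07, and Klf2 with Ier2 gave -0.07, the only negative median among pairs of the 6 markers. The chemokine genes Ccl3 and Ccl4, neighbours on a chromosome, reached 0.61. Egr1 and Ccl3 gave -0.06. These are correlations across cells of the same library and depth and were not tested.

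Over all genes with at least 10 UMIs in both clusters of every mouse (10866 genes), 161 genes (1.48%) were higher in cluster 0 by a mean of at least 1 on the log2 scale with the same sign in 12 mice, and 63 (0.58%) were lower. The median gene differed by -0.11. After thinning 137 genes were higher and 12 lower, and with TMM scaling 192 and 32. Of 36 immediate early genes 34 could be compared, 30 passed this mark as higher and none as lower, and their median difference was 2.09 (1.91 after thinning). Relative to cluster 2 the median of the list was 0.40, none of 34 passed as higher and 2 passed as lower. All 7 AP-1 subunits compared were higher, by 1.05 to 2.80, and so were the 3 EGR factors, by 2.32 to 2.88, and the 3 KLF factors, by 1.25 to 2.43. Nr4a1, an orphan nuclear receptor induced early, was higher by 2.35, while Nr4a2 had too few UMIs to be compared. The 4 IER genes were higher by 1.26 to 2.83, and Cebpb was the 1 of 2 C/EBP factors past the mark, at 1.03.

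The feedback inhibitors of the early response stood high as well. Of 14 such genes 11 passed the mark. Gadd45b, a stress protein that acts on MAP kinase signalling, had the highest difference of all genes compared, 3.30 ± 0.47 (SD, n = 12), at a mean of 93.3 CPM in cluster 0 and 10.4 CPM in cluster 1. Cluster 2 held more of it still, at a mean of 275 CPM, and cluster 0 was higher than cluster 2 in 0 of 12 mice (-1.57 ± 0.43). Nfkbiz, a nuclear IkB protein, was higher by 2.84 ± 0.24 and the phosphatase gene Dusp2 by 2.82 ± 0.36, at 56.6 CPM in cluster 0 and 132 CPM in cluster 2. Nfkbia was higher by 2.31 ± 0.19, Dusp1 by 2.01 ± 0.27 and Socs3, an inhibitor of cytokine receptors, by 1.80 ± 0.24. Rgs1, a regulator of G protein signalling that the list also held, went the other way by -0.71 ± 0.23 and was lower in 12 of 12 mice. Outside the lists, Marcksl1, an actin-binding substrate of protein kinase C, was higher by 2.99 ± 0.14, with the smallest SD among the 12 highest genes, and the phosphatase gene Dusp8 by 2.65.

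Cytokine and chemokine genes followed. Of 13 compared 8 were higher and none lower, with a median of 1.18. Tnf averaged 179 CPM in cluster 0 and 26.1 CPM in cluster 1, a difference of 2.80 ± 0.26 (SD, n = 12). Il1b, the precursor of interleukin 1 beta, averaged 229 against 40.4 CPM (2.64 ± 0.47). The T cell attractant Cxcl10, which was listed with the interferon response genes instead, averaged 70.6 against 12.5 CPM (2.59 ± 0.49). Cluster 2 held still more of these: 668 CPM of Tnf and 759 CPM of Cxcl10. Relative to cluster 2 the 10 genes of the cytokine and chemokine list that could be compared had a median of -1.24, and 7 of them were lower in cluster 0.

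Heat shock genes went in both directions. Of 10 genes 5 were higher and 2 lower in 12 of 12 mice, and 1 of each passed the mark. Dnajb1, a co-chaperone, was higher in cluster 0 by 1.65 ± 0.25 (SD, n = 12), Hspa1b was lower by 2.01 on the log2 scale (-2.01 ± 0.37), and the median was 0.15. The chaperones Hspa5 (0.38 ± 0.12), Hspa8 (0.29 ± 0.09), Hsp90aa1 (0.29 ± 0.14) and Hsp90ab1 (0.24 ± 0.10) were also higher in 12 of 12 mice. Hspa1a differed by -0.74, and since Hspa1a and Hspa1b are near-identical copies, reads between them are uncertain. Cluster 0 had a mean of 14.6 CPM of Hspa1b against 57.8 CPM in cluster 1. Among the 8 lowest genes 3 coded for histones, Hist1h2ac (-1.97 ± 0.31), Hist1h2bg (-1.78 ± 0.25) and Hist1h2be (-1.22 ± 0.23). The 24 histone cluster genes compared had a median of -0.53, and 4 passed the mark as lower. The other genes at the low end were Snhg20 at -1.42, Slc6a20b at -1.29, Ccdc142 at -1.24 and Zfp418 at -1.18, of which Slc6a20b and Ccdc142 came to -0.89 and -0.94 after thinning. Slc6a20b, Ccdc142 and Zfp418 were rare, at 1.27, 0.863 and 0.865 CPM in cluster 0 and 3.07, 2.02 and 1.99 CPM in cluster 1. Cluster 1 sums held fewer UMIs, so the filter on UMIs let in genes this rare more readily where they were lower in cluster 0 than where they were higher.

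Homeostatic genes were slightly lower. None of 30 passed the mark, 23 were lower in 12 of 12 mice, 6 were higher in 12 of 12, and the median was -0.21. Of all 10866 genes compared 3396 were lower and 1021 higher in 12 of 12 mice, with a median of -0.11. P2ry6 differed by -0.47 ± 0.16 (SD, n = 12), P2ry13 by -0.43 ± 0.06, Tmem119 by -0.32 ± 0.04 and P2ry12 by -0.25 ± 0.05. The 6 that were higher included the transcription factor genes Cebpa (0.68 ± 0.14) and Spi1 (0.19 ± 0.05). Relative to cluster 2 the homeostatic median was 0.36.

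Other programmes separated cluster 0 from cluster 2 rather than from cluster 1. Disease-associated microglia genes, which code for lipid, lysosome and phagocytosis proteins, had a median of -0.07 against cluster 1 with 1 of 17 higher, the growth factor gene Csf1 (1.65 ± 0.27, SD, n = 12). Against cluster 2 their median was -1.51 and 11 of 19 were lower. Interferon response genes had a median of 0.04 against cluster 1, with Cxcl10 the 1 of 14 that was higher, and of -4.31 against cluster 2, where 16 of 16 were lower. Over all 5347 genes compared with cluster 2, 3 were higher in cluster 0 and 143 (2.67%) were lower. Cytosolic ribosomal protein genes differed from cluster 1 by a median of -0.09 over 78 genes and mitochondrially encoded genes by -0.00 over 13. The nuclear RNA Neat1 was higher by 1.16 and Malat1 lower by 0.24 on the log2 scale (-0.24).

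**Figure D3:**
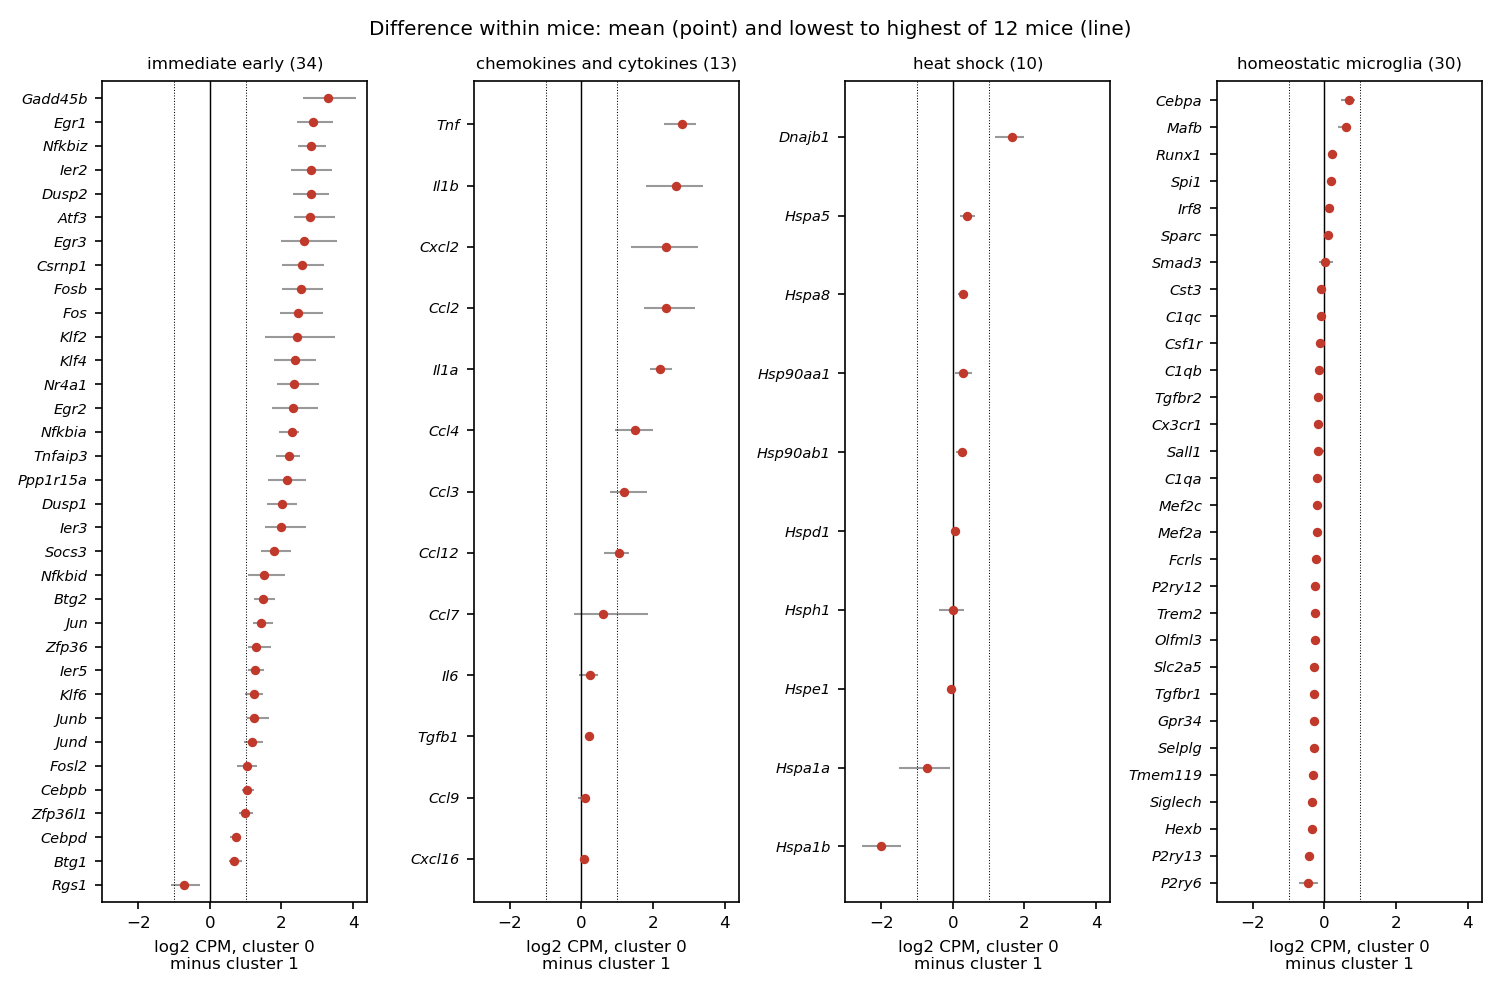
Difference in log2 CPM between cluster 0 and cluster 1 of the same mouse for genes of 4 lists; points are means and lines span the lowest to the highest of 12 mice, with dotted lines at the mark of 1. Of 34 immediate early genes 30 lie past 1, whereas the 30 homeostatic genes lie between -0.47 and 0.68.

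Between the groups the markers were compared in cells that had entered the cluster by them. In 1 fit over the 12 mice (limma-voom on the cluster 0 sum of each mouse, 13198 genes, Benjamini-Hochberg adjusted p under 0.05), none of the 6 markers was called in any comparison of groups. CPM of single genes here and below are scaled with TMM factors. Egr1 stood at 2831, 2994 and 2762 CPM in the ATV:RSV mice, at 2487, 2892 and 2790 at day 7, at 2708, 2669 and 3098 at day 14 and at 2819, 2898 and 2959 at day 28. The groups overlapped, and day 7 differed from ATV:RSV by -0.07 ± 0.06 (log2, SE). Fos differed by -0.01 ± 0.09, Atf3 by 0.04 ± 0.10, Ier2 by -0.16 ± 0.09, Fosb by -0.32 ± 0.20 and Klf2 by -0.37 ± 0.26. Such levels describe cells already chosen for these genes, and say nothing of whether the state was stable. Scaled by library size alone, the 36 immediate early genes summed to 49302 to 49558 CPM in ATV:RSV mice and 43927 to 47077 at day 7. They summed to 47780 to 51028 at day 14 and 50807 to 52406 at day 28, so that the day 7 mice lay below the other groups. On that scale a rise in other genes lowers the sum. The 78 cytosolic ribosomal protein genes summed to 121581 to 130832 CPM in ATV:RSV mice and 153882 to 165879 at day 7. Their part in the lower early sum was not tested. Median UMIs per cell were 6346 ± 540 (SD, n = 3) in ATV:RSV mice, 5884 ± 797 at day 7, 6306 ± 662 at day 14 and 6793 ± 155 at day 28 (exact permutation test within batches, two-sided, p = 0.431, smallest possible 0.00174). The median mitochondrial share was 3.28 ± 0.163%, 3.72 ± 0.275%, 3.31 ± 0.329% and 3.40 ± 0.135% (the same exact test, p = 0.212). In thinned cluster 0 cells the median number of genes was 1696, 1700 and 1726 in the day 7 mice and 1724 to 1776 in the other groups. In cluster 1 it was 1642, 1654 and 1709 at day 7 and 1719 to 1839 in the other groups. These gene numbers were not tested between groups.

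Of days 7, 14 and 28 after ATV:4D9, day 7 had the most genes called in cluster 0 against ATV:RSV mice. Of 13198 genes 497 passed (3.77%), 370 higher (2.8%) and 127 lower (0.962%), and 56 of the higher and 14 of the lower ones changed at least 2-fold. The 3 comparisons with ATV:RSV share the same control mice. With the batch as a replicate block 830 genes passed, 560 higher and 270 lower, and with scaling to library size alone 628, 260 higher and 368 lower. The count fell to 244 when ATV:RSV replicate 2 was left out, and to 296 or 294 when day 7 replicate 2 or 3 was. A summed count cannot tell more cells with a transcript from more of it in each cell.

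Genes of the disease-associated programme rose in cluster 0 at day 7. Of 21 tested 9 were higher and none lower, with a median log2 difference of 0.47 against -0.00 for all genes. Apoe, the lipid carrier, was at 549, 537 and 543 CPM in ATV:RSV mice and at 1109, 1138 and 1166 CPM at day 7 (1.07 ± 0.09 log2, SE, limma adjusted p = 4.31e-05). It was at 660, 664 and 870 CPM at day 14 and at 817, 657 and 762 CPM at day 28, above every ATV:RSV mouse and below every day 7 mouse. Itgax, the integrin CD11c, was at 2.88, 2.40 and 2.65 CPM in ATV:RSV mice, at 7.97, 7.92 and 8.33 CPM at day 7, and at 2.73 to 4.45 CPM at days 14 and 28 (day 7: 1.61 ± 0.13, limma adjusted p = 4.31e-05). The receptor gene Axl, which binds dying cells through a bridging ligand, rose by 1.82 ± 0.25 (limma adjusted p = 0.00076) from 3.92, 1.56 and 1.77 CPM to 6.84, 9.88 and 7.80 CPM. Clec7a, a pattern receptor, rose by 1.18 ± 0.15 and Cst7, a cystatin, by 0.95 ± 0.10. Without any 1 mouse 7 to 9 genes of the list passed.

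Interferon response genes rose in cluster 0 at the same time, 11 of 17 with none lower and a median of 0.86. Ifitm3, which blocks virus entry, was at 28.0, 10.8 and 16.6 CPM in ATV:RSV mice and at 55.3, 49.3 and 48.6 CPM at day 7 (1.56 ± 0.23 log2, SE, limma adjusted p = 0.00106). Isg15, a ubiquitin-like protein, rose by 0.53 ± 0.12 and Oasl2 by 1.36 ± 0.29. Ifi27l2a, which interferon induces, rose by 1.75 ± 0.31 from 34.1, 9.72 and 14.9 CPM to 64.9, 57.6 and 53.5 CPM. In these genes ATV:RSV replicate 1 was the highest control, and the chemokine gene Ccl5 stood at 37.5 CPM in that mouse and at 1.77 CPM in both others, against 28.9 to 41.8 CPM at day 7. The count of 11 depended on single mice: it was 13 when ATV:RSV replicate 1 was left out, and 3 to 7 when ATV:RSV replicate 2 or 3 or any day 7 mouse was. The MHC class I genes H2-Q7 and H2-Q6, near-identical copies whose reads are uncertain between them, rose by 1.88 ± 0.29 and 2.13 ± 0.30. H2-Q7 was at 27.5, 8.06 and 12.3 CPM in ATV:RSV mice and at 41.1, 58.8 and 58.4 CPM at day 7.

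Some cytokine genes rose within cluster 0 at day 7. Of 13 tested 4 were higher and none lower, with a median of 0.24. Il1b was at 163, 105 and 91.4 CPM in ATV:RSV mice, at 303, 518 and 432 CPM at day 7, at 150, 190 and 238 CPM at day 14 and at 298, 132 and 146 CPM at day 28, and the day 7 mice all stood above every ATV:RSV mouse (day 7: 1.81 ± 0.30 log2, SE, limma adjusted p = 0.00269). Cxcl16, a membrane-bound chemokine, was at 54.3 to 60.8 CPM in ATV:RSV mice and at 96.8 to 97.5 CPM at day 7, a rise of 0.78 ± 0.07. Ccl4 rose by 0.82 ± 0.20 and Il1a by 0.80 ± 0.19. Without ATV:RSV replicate 2 or 3 or day 7 replicate 2 or 3, 2 of the 4 passed.

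The immediate early list as a whole showed no common direction at day 7, with 2 of 36 genes higher, 2 lower and a median of 0.04. Jun, the AP-1 subunit, fell from 6925, 7047 and 6894 CPM to 5547, 5746 and 5799 CPM (-0.29 ± 0.05 log2, SE, limma adjusted p = 0.00339), below every mouse of the other groups. It stood at 6634, 7320 and 6403 CPM at day 14 and at 6887, 7132 and 7284 CPM at day 28. Cebpd, a C/EBP factor of the acute phase, fell by 0.49 on the log2 scale (-0.49 ± 0.08), from 348, 350 and 365 CPM to 281, 240 and 238 CPM. Dusp2 rose by 1.06 ± 0.26, from 40.9, 36.9 and 32.9 CPM to 47.5, 103 and 92.1 CPM, and Gadd45b by 0.74 ± 0.17. Neither rise passed when ATV:RSV replicate 2 or 3, or day 7 replicate 2 or 3, was left out, and 1 of them passed without day 28 replicate 2. Gadd45g, a relative of Gadd45b outside the list, fell from 48.3, 51.2 and 54.3 CPM to 21.6, 28.3 and 23.5 CPM (-1.08 ± 0.15).

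Among 30 homeostatic genes 5 fell at day 7 and none rose, with a median of -0.06. Slc2a5, the fructose transporter, fell by 0.35 on the log2 scale (-0.35 ± 0.05, SE), Fcrls by 0.26 (-0.26 ± 0.07), Siglech, a sialic acid receptor, by 0.24 (-0.24 ± 0.04) and P2ry12 by 0.22 (-0.22 ± 0.05). P2ry12 was at 2041, 2032 and 1981 CPM in ATV:RSV mice and at 1756, 1843 and 1624 CPM at day 7, without overlap. The count was 2 or 3 without any 1 of the ATV:RSV or day 7 mice, day 14 replicate 2 or day 28 replicate 2. Outside the lists, the lowest called genes whose groups did not overlap and that had 10 or more UMIs per mouse included Lyzl4, a lysozyme-like gene, at 6.41, 6.49 and 7.10 CPM against 1.80, 2.32 and 2.70 CPM (-1.53 ± 0.17), and Ccdc162 (-1.001 ± 0.19). The neuronal genes Nefl (-0.90 ± 0.22) and Nrgn (-0.89 ± 0.17) also fell, and the call of Nefl was lost in 15 alternatives and that of Nrgn in 2. Scaled by library size alone, the 7 neuron markers summed to 9.79 to 13.5 CPM in ATV:RSV mice, 6.07 to 7.51 CPM at day 7, 8.57 to 12.2 CPM at day 14 and 9.86 to 11.5 CPM at day 28, and none of them was called. The median difference at day 7 was -0.59 over these markers, -0.94 over 4 erythrocyte markers and -0.53 over 6 astrocyte markers, of which none was called. It was -1.0004 over 6 endothelial markers, of which Pecam1, an adhesion molecule, fell by 0.49 on the log2 scale (-0.49 ± 0.10). Of the neutrophil list Csf3r, the receptor of a granulocyte growth factor, rose by 0.28 ± 0.04. The part of RNA from other cells in these results was not tested.

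Ribosomal protein genes moved together. At day 7, 69 of 78 cytosolic ribosomal protein genes were higher and none lower, with a median of 0.42, and 78 of 78 had a positive difference under each scaling. Rpl32, a protein of the large subunit, was at 1865, 1779 and 1749 CPM in ATV:RSV mice, at 2712, 2656 and 2497 CPM at day 7, at 2272, 2146 and 2070 CPM at day 14 and at 1971, 1866 and 1773 CPM at day 28 (day 7: 0.54 ± 0.05 log2, SE, limma adjusted p = 6.32e-05). Its day 14 mice lay between those of day 7 and ATV:RSV, without overlap. The elongation factor genes Eef1b2 and Eef1a1 rose by 0.47 ± 0.04 and 0.33 ± 0.04. The nuclear RNA Malat1 fell by 0.37 on the log2 scale (-0.37 ± 0.05), and mitochondrial share and depth at day 7 were as given above.

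**Figure D4:**
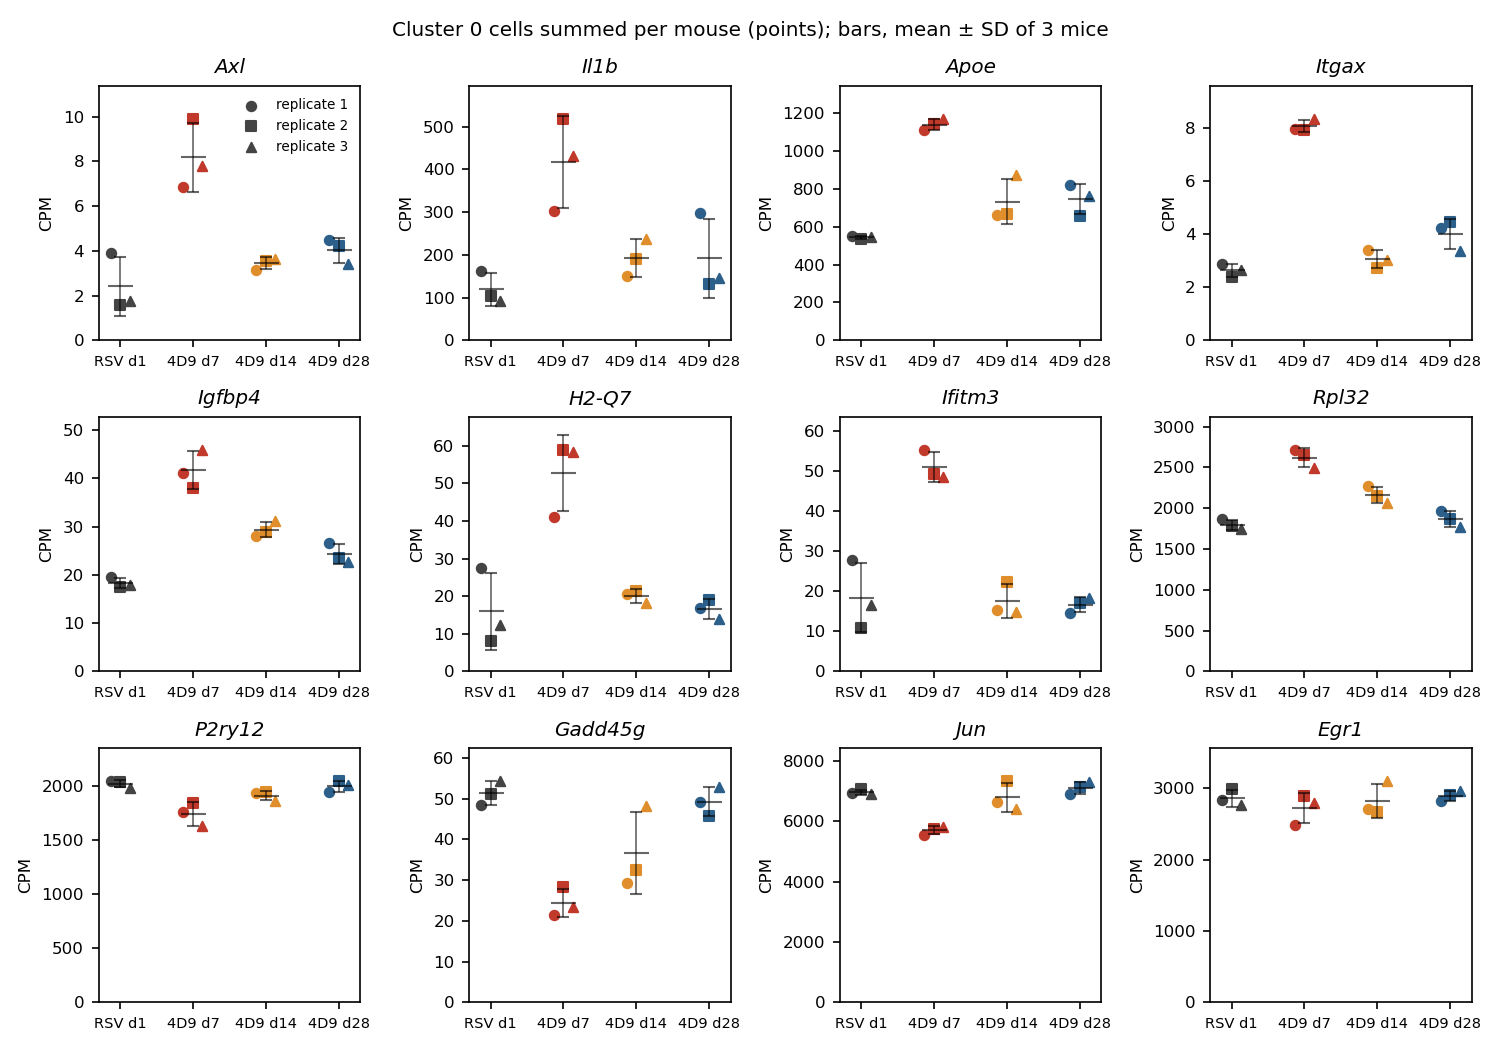
Level of 12 genes in CPM in the cluster 0 cells of each mouse, by group, from 0; points are mice, shapes their replicate numbers and bars mean ± SD of 3 mice. Apoe, Itgax, Il1b and Rpl32 stand highest at day 7 (Apoe 1109 to 1166 CPM), Jun stands lowest at day 7, and Egr1 overlaps across the groups.

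At day 14, 1 gene of 13198 passed against ATV:RSV (0.00758%). This was Igfbp4, a binding protein of insulin-like growth factors, at 19.6, 17.5 and 18.0 CPM in ATV:RSV mice and at 28.1, 28.9 and 31.2 CPM at day 14 (0.68 ± 0.09 log2, SE, limma adjusted p = 0.0307). At day 7 it was at 41.1, 38.1 and 45.8 CPM and at day 28 at 26.7, 23.5 and 22.7 CPM, so that the groups fell in order of day without overlap, though day 28 did not pass (0.40 ± 0.09, limma adjusted p = 0.811). With the batch as a replicate block 84 genes passed at day 14, 78 of them higher, and DESeq2 gave 90, all cells of a mouse 57, no filter on low counts 26 and all 15 mice in the fit 15. In the fit without the block, no gene of the immediate early, cytokine, homeostatic, disease-associated, interferon or ribosomal lists passed at day 14. Even so, 78 of 78 ribosomal genes had a positive difference there, with a median of 0.23. The single call was lost when any ATV:RSV or day 14 mouse, day 7 replicate 1 or day 28 replicate 2 was left out, and with library size alone, and the count was 0 to 3 over all mice left out in turn.

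At day 28 no gene passed against ATV:RSV (0%) with limma-voom. At an unadjusted p under 0.05 there were 539 genes, edgeR called 0 and DESeq2 6, and the replicate block gave 1. Apoe differed by 0.45 ± 0.09 (log2, SE) and Axl by 0.82 ± 0.27, neither past the threshold.

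In the same fit over 12 mice, 56 genes passed at day 14 against day 7 (0.424%), 52 of them lower (0.394%), and 235 at day 28 against day 7 (1.78%), 199 of them lower (1.51%). At day 28, 12 of 17 interferon genes, 7 of 21 disease-associated genes and 55 of 78 ribosomal genes were lower, with medians of -0.94, -0.26 and -0.35. Itgax fell by 1.02 on the log2 scale (-1.02 ± 0.11, SE), Cst7 by 1.10 (-1.10 ± 0.10), Oasl2 by 1.94 (-1.94 ± 0.32) and H2-Q7 by 1.67 (-1.67 ± 0.27). C4b, the complement component, fell by 2.05 (-2.05 ± 0.44, a call lost in 5 alternatives) and Ccl5 by 2.90 (-2.90 ± 0.66, a call lost in 13). Going the other way, Gadd45g rose by 1.02 ± 0.15, Lyzl4 by 1.17 ± 0.17 and Jun by 0.32 ± 0.05. At day 28, 3 homeostatic genes rose, P2ry13, Siglech and Slc2a5, or 5 with the replicate block and 1 without day 28 replicate 2 or 3. The block gave 159 and 400 genes in all at days 14 and 28, and library size alone gave 219 at day 28, 76 higher and 143 lower. Counts at day 28 were 127, 135 and 140 without day 28 replicate 2, day 28 replicate 3 and day 7 replicate 2, and the interferon count was 4 to 7 without any 1 day 28 mouse or day 7 replicate 1 or 2.

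At day 14 the step down from day 7 was already seen in single genes. Ifitm3 fell from 55.3, 49.3 and 48.6 CPM to 15.5, 22.4 and 14.97 CPM (-1.58 ± 0.22 log2, SE, limma adjusted p = 0.0101), and Itgax fell by 1.40 (-1.40 ± 0.13), each with no overlap. Of the lists, 12 of 78 ribosomal, 6 of 21 disease-associated and 4 of 17 interferon genes were lower than at day 7, beside 0.394% of all genes. Jun was higher by 0.25 ± 0.05. With the replicate block the ribosomal count was 48 and the interferon count 10, and with library size alone they were 0 and 1. Without a single mouse the ribosomal count fell to between 0 and 2 for day 7 replicates 1 and 2, any day 14 mouse and day 28 replicate 2, and the total was 7, 12 and 22 without day 14 replicates 2, 1 and 3, 10, 29 and 31 without day 7 replicates 2, 3 and 1, and 25 without day 28 replicate 2. The disease-associated count was 2 or 3 without day 7 replicate 2 or 3 or day 14 replicate 1 or 2, and the interferon count 0 to 2 without any day 14 mouse, any day 28 mouse or day 7 replicate 1 or 2, and 7 without ATV:RSV replicate 1. The call of Jun was lost in 13 alternatives and that of Ifitm3 without day 14 replicate 1. Over all 4 groups 239 genes differed (1.81%), with Igfbp4, Eef1b2 and Itgax at the lowest limma adjusted p, 0.000159 each, and the count was 152 without day 7 replicate 2 and 373 with the block.

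Cluster 1 of the same mice allowed a test of whether the change from ATV:RSV differed between the states. At day 7, 170 of 12943 genes passed (1.31%), 158 of them with a smaller or more negative change in cluster 0 (1.22%). With library size alone there were 286, of which 125 were lower and 161 higher. H2-Q7 differed from ATV:RSV by 1.86 in cluster 0 and by 2.95 in cluster 1 (differences of group means of log2 CPM with 0.5 CPM added, here and in the next paragraph), a difference between the clusters of -1.13 ± 0.12 in the fit (SE, limma adjusted p = 4.35e-06). Apoe differed by 1.07 and 1.51 (-0.45 ± 0.06). Axl, for which the added 0.5 CPM lowers such differences, went from a mean of 2.50 to 8.48 CPM in cluster 0 and from 0.969 to 8.32 CPM in cluster 1 (-1.35 ± 0.29 in the fit). With them Clec7a (-0.74 ± 0.16) and B2m (-0.22) passed, 4 of 21 disease-associated genes.

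All 78 ribosomal genes passed in this test, each with a smaller change in cluster 0, with a median of -0.24 (76 with library size alone). Rack1, a ribosome-bound scaffold, changed by 0.34 in cluster 0 and by 0.65 in cluster 1 (-0.30 ± 0.04) and Eef1a1 by 0.34 and 0.62 (-0.29 ± 0.03). Among 36 immediate early genes 9 passed, all lower in cluster 0. Fos changed by -0.01 in cluster 0 and by 0.58 in cluster 1 (-0.58 ± 0.13, limma adjusted p = 0.0146), Junb by 0.05 and 0.45, Zfp36, which degrades cytokine messengers, by 0.07 and 0.48, and Gadd45b by 0.74 and 1.54. The call of Fos was lost with no filter, with DESeq2 and without ATV:RSV replicate 1 or 3 or day 7 replicate 1 or 2. Ier2 also passed (-0.58 ± 0.15, limma adjusted p = 0.0469), a call lost in 13 of 20 alternatives. The line between the clusters was drawn on these same genes, so these calls cannot tell a smaller change from the choice of cells. The count of 9 was 3 or 4 without ATV:RSV replicate 1 or 3 or day 7 replicate 1 or 2, and 19 without ATV:RSV replicate 2 or day 7 replicate 3. Of 13 mitochondrially encoded genes 5 passed as lower, all 13 with a negative difference, as did 5 of 80 oxidative phosphorylation genes and, of 13 cytokine genes, Ccl3. The mitochondrially encoded count was 0 with thinned cells, 1 with library size alone, 1 when ATV:RSV replicate 1 or day 7 replicate 1 was left out and 9 for ATV:RSV replicate 2. The oxidative phosphorylation count was 1 with thinned cells, 3 with library size alone, 3 when ATV:RSV replicate 1 or day 7 replicate 2 was left out and 2 for day 7 replicate 3. No homeostatic or interferon gene of the lists passed.

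**Figure D5:**
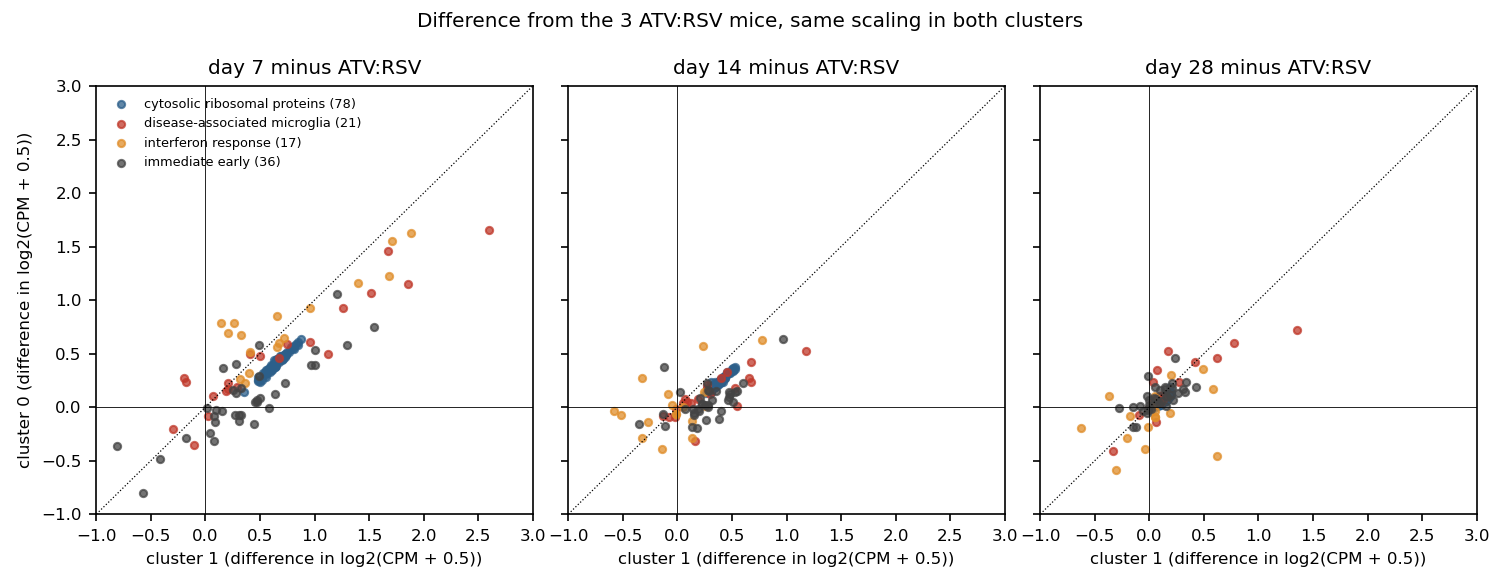
Difference from ATV:RSV in log2(CPM + 0.5) in cluster 1 (x axis) and cluster 0 (y axis) at days 7, 14 and 28, for 4 gene lists on 1 scale; each point is a gene and the dotted line marks equal change. At day 7 the 78 ribosomal genes lie below the line, with 78 of 78 called; all panels share the 3 ATV:RSV mice.

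At day 14 the test gave 10 genes (0.0773%), 3 higher and 7 lower in cluster 0, and with library size alone 6, 3 in each direction. Otud1, a deubiquitinase gene, led with -0.51 ± 0.07 (log2, SE, limma adjusted p = 0.00258), followed by the ferritin gene Ftl1 (-0.21 ± 0.04) and Zfp36 (-0.38 ± 0.07). With no filter on low counts or with thinned cells none of these 3 calls held, and with DESeq2 that of Otud1 alone did. The 3 higher genes were haemoglobins, named after their values were seen. They rested on single mice: Hbb-bs had 7558 UMIs in cluster 1 and 54 in cluster 0 of ATV:RSV replicate 1, and 819 in cluster 0 and 12 in cluster 1 of day 14 replicate 1. The count was 1 to 123 over mice left out in turn, 123 without ATV:RSV replicate 2, 94 without day 28 replicate 3, and 6 or fewer without ATV:RSV replicate 1 or 3 or day 14 replicate 1 or 3. At day 28 no gene passed (0%) with limma-voom, 556 had an unadjusted p under 0.05, and edgeR and DESeq2 called 0.

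Batches differed within cluster 0. With group in the fit 582 genes differed among the 3 batches (4.41%). The test among the 4 groups gave 239, but its fit left batch out and called more genes with the block, as given above. Zc3h6, a zinc finger gene, was at 9.19 to 11.95 CPM in the 4 mice of batch 1, 13.3 to 20.1 CPM in those of batch 2 and 23.9 to 28.1 CPM in those of batch 3, without overlap (limma adjusted p = 0.00525). None of the 36 immediate early genes was called by batch, beside 4.41% of all genes. Cells had entered the cluster by such genes, so this says nothing of whether batch moved the state. For the 6 markers the lowest limma adjusted p was 0.0707, for Fosb, which stood lowest in batch 3 in each group. Of 10 heat shock genes 4 differed by batch, Hspa1a, Hsph1, Hspe1 and Hspd1. Hsph1 was at 26.3 to 41.0 CPM in batch 1 against 10.2 to 21.6 CPM in the others. Ribosomal genes differed in 36 of 78 cases. The count was 58 without ATV:RSV replicate 1 and 113 to 182 without ATV:RSV replicate 3, day 7 replicate 1, day 14 replicate 3, day 28 replicate 1 or day 28 replicate 3, and 326 and 323 without ATV:RSV replicate 2 and day 14 replicate 1.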

How the data were processed

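Microglia of 15 mice had been counted with 10x Genomics 3′ chemistry, and 12 mice are used here. Per the submitters' processing notes, reads were mapped to mm10 with Cell Ranger 4.0.0, while the study's methods name later versions. The deposited UMI counts were raw counts per gene and cell after the authors' filters on cells, whose cut-offs are not given in the sources used here. The deposited cell table gave the cluster from Seurat and the mitochondrial percent of each cell, computed by the authors from the same counts. No doublet caller was run, and cells with markers of another type or very high UMIs were left out in an alternative.

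Counts were summed per mouse and cluster. The groups were compared with limma 3.58.1 (voom, TMM scaling, filterByExpr with a minimum count of 10, edgeR 4.0.16) as group means, on 13198 genes with Benjamini-Hochberg adjustment and a threshold of 0.05. The response test kept the mouse as a fixed effect over both clusters. Within mice, log2 CPM with 0.5 UMIs added was subtracted between clusters. Library totals of 22494936 to 33617612 UMIs set the counting error, and UMIs are molecules. An exact two-sided permutation within batches was used for single values. The steps were tested on simulated data, in which 173 of 200 changed genes were recovered at day 7, 146 of 200 in the response test and 179 of 200 among batches.

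Replicate numbers are batches, which the labels say held every condition, so they pair the mice; deviations from group means correlated by a mean of 0.0436 in 18 same-batch pairs (-0.377 to 0.373) and -0.0199 in 36 others. Mice of a group differed beyond sampling noise in each of 12 pairs (chi-square per degree of freedom 7.57 to 21.3).

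The members and gene lists were chosen with earlier results of these data known. Named genes are the 6 markers and 2 to 4 members of each list with the largest change, the 12 highest and 8 lowest genes between clusters, the 5 highest and lowest called genes without overlap per comparison and the 3 lowest adjusted p-values per response or batch test. Alternatives were another scaling, no filter, edgeR, DESeq2 1.42.0, the block, doubtful cells left out, all 15 mice, thinned cells, all cells of a mouse and each mouse left out in turn. Values of some genes are not reported here. Promoter windows and their positions come from a RefSeq table on GRCm38.p6.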

Additional observations from a re-analysis of the deposited data

Results flagged for a closer look

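The change from ATV:RSV mice differed between cluster 0 and cluster 1 of the same mice in 170 of 12943 genes at day 7 (1.31%). At day 14 it differed in 10 genes (0.0773%), by limma's test of the difference itself. At day 7 the difference was -1.13 (log2) for H2-Q7, whose reads are uncertain against its close copies, -0.29 for Eef1a1 and -0.30 for Rack1. At day 14 it was -0.51 for Otud1, -0.21 for Ftl1 and -0.38 for Zfp36. By list, 9 of 36 immediate early, 4 of 21 disease-associated and 78 of 78 ribosomal genes had the smaller or more negative change in cluster 0 at day 7. So did 5 of 13 mitochondrially encoded genes, 5 oxidative phosphorylation genes of the 84 listed and 1 of 13 cytokine genes. The immediate early, mitochondrially encoded and oxidative phosphorylation counts moved with single mice, and the last 2 also with thinned cells, as given above. The clusters were drawn on the same cells and genes, and the part of that choice in these differences was not tested. No explanation was weighed.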

How the results depend on the processing

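Of 1985 values of single genes under the alternatives, 1796 kept their side of the threshold or, between clusters within mice, stayed within 1 SD. Another 179 lost the threshold, 8 gained it and 2 moved by more than 1 SD. None reversed among genes called in either fit. Genes called in neither could change sign, as Fos did at day 7 against ATV:RSV (-0.07 to 0.07). Many of the values that kept their side belong to markers that were not called in the main fit and stayed uncalled. Only results called in the main fit could lose the threshold, so the pooled count understates how often calls were lost. For day 14 against day 7 every named gene lost its call in some alternative, from 1 of 22 for Ifitm3 to 17 of 22 for Lyzl4. The replicate block gave 830 genes at day 7, 84 at day 14 and 1 at day 28 against ATV:RSV, 159 and 400 at days 14 and 28 against day 7 and 373 among the groups; it changed the call of no single gene named for these tests, and moved list counts as given above. DESeq2 gave 90, 6 and 161 (day 14, day 28, day 14 against day 7), 436 among the groups and 1 in the response test at day 14, and its own filter on mean counts left Igfbp4 with no adjusted p at day 14. Library size alone gave 0 at day 14, 27 for day 14 against day 7, and 286 and 6 in the response tests of days 7 and 14. No filter on low counts gave 26 at day 14, 257 among batches and 0 in the day 14 response test. All 15 mice in the fit gave 15 at day 14 and 107 against day 7. Thinned cells gave 2, 35, 290 among batches and 1 in the day 14 response test, where leaving out doubtful cells gave 5. All cells of a mouse gave 57 and 121 at day 14 and 911 among batches.

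Leaving out 1 mouse at a time gave 244 to 498 genes at day 7, 0 to 3 at day 14 and 0 at day 28, 7 to 71 and 127 to 243 for days 14 and 28 against day 7, 152 to 255 among groups, 58 to 759 among batches, and 138 to 200, 1 to 123 and 0 in the response tests. Permutation p ranged from 0.0729 to 0.691 for UMIs and from 0.0503 to 0.649 for mitochondrial share. Between clusters, the 63 lower genes became 12 after thinning and 32 with TMM, the 161 higher ones 137 and 192, and with a mark of 0.5 there were 364 higher and 625 lower. Without 1 mouse these counts were 159 to 167 and 57 to 74. The causes were not tested.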
